A study of Mus musculus with 8 samples.

Results

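The 10 genes described here encode proteins that the visceral endoderm and its descendant, the yolk sac endoderm, release to the embryo or use to take up nutrients. They were picked by name, as 10 of the 24421 genes counted in each of 8 RNA-seq libraries. The carriers are Afp, Apoa1, Apoa4, Apob, Ttr and Rbp4, and the uptake genes are Cubn, Amn, Lrp2 and Dab2. The cells were mouse embryonic stem cells of a CAST/Ei x 129/Sv/Jae hybrid, WT or bearing the HNRNPK 6A mutation, and the series concerns the spreading of Xist RNA on the X chromosome. HNRNPK is an RNA-binding protein; the labels do not say which residues 6A replaces, how the mutant was made or whether it is 1 clone.

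The 4 groups were WT at day 0, 6A at day 0, WT at day 14 and 6A at day 14, with 2 libraries each. Cells at day 0 came off irradiated fibroblast feeders in medium with leukemia inhibitory factor (LIF), and the feeders were taken away before harvest. Without LIF, cells then formed embryoid bodies for 4 days in suspension, attached from day 5 and were collected at day 14. The series' design sentence gives day 7 for the differentiated cells, whereas the titles, cell types and protocol give day 14, which is used here. Libraries held 8146684 to 15540163 counts, so that a floor of 3 counts equals 0.2003 to 0.370 CPM in a single library, where CPM is the count scaled to the TMM-adjusted library size. Hnrnpk itself, which a substitution need not change in level, was lower in 6A at both times (log2 fold change -0.58 ± 0.12 at day 0, edgeR adjusted p = 0.040; -0.40 ± 0.12 at day 14, adjusted p = 0.043).

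The visceral endoderm is an epithelium that surrounds the early embryo and later lines the yolk sac. It feeds the embryo before the placenta works: it absorbs maternal protein and lipid at its apical face, digests the protein in lysosomes, and secretes lipoproteins and serum carriers toward the embryo. Uptake runs through cubilin (Cubn), a large peripheral protein that binds albumin, apolipoprotein A-I and vitamin B12 with intrinsic factor. Cubilin is held in the membrane by amnionless (Amn) and works beside megalin (Lrp2), a giant endocytic receptor, while Dab2 is the adaptor that links receptor tails to clathrin. Among the carriers, Afp is the albumin-like protein of fetal serum, Apob is the structural protein of large lipoproteins, and Apoa1 and Apoa4 are apolipoproteins of smaller particles. Rbp4 carries retinol in plasma, and Ttr binds thyroxine and the Rbp4 and retinol complex.

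The sequence before the starts of the genes was scanned for motifs of endoderm factors, and 5 stretches are shown because 4 of them hold the FOXA motif TGTTTNC and the other does not. It was searched on both strands over the 250 bases before each start in the RefSeq promoter table (GRCm38.p6), for 9 of the 10 genes. That of Ttr was not used here. Among the carriers it lay near a start of 4 of 5 genes, all but Apoa4, and in 4 of 6 start windows; among the uptake genes it lay in 0 of 5 windows of 4 genes. Of all 32851 windows of the same length, 17.8% held it. The windows of Apoa4 and of the second start of Rbp4, which lack it, begin within an annotated exon. The HNF1 motif GTTAAT, on either strand, was found in Afp and at the second start of Dab2, against 6.43% of all windows. In Dab2 the match lies past the first base of an annotated exon in that window. The GATA motif AGATAA was in none of the 11 windows, against 9.99% of all. The HNF4 motif CAAAGTCC was also in none, against 1.2% of all. The motifs do not overlap in these windows.

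The stretches below end before the first annotated exon and read 5′ to 3′ on the gene's strand, with FOXA motifs on either strand in capitals, as is the HNF1 motif of Afp. Those of Afp (chr5:90490464-90490713, plus), Apoa1 (chr9:46228380-46228579, plus), Apob (chr12:7977427-7977647, plus) and Rbp4 (chr19:38125322-38125571, minus) carry the motif. That of Cubn (chr2:13491877-13492126, minus) is the contrast: it has no such motif, and its gene had the smallest adjusted p of the 10 between genotypes at day 14.
Afp: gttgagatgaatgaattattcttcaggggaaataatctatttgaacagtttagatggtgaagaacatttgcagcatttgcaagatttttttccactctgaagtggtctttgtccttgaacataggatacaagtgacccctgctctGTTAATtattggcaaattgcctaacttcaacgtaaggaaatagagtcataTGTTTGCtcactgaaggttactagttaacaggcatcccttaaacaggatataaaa
Apoa1: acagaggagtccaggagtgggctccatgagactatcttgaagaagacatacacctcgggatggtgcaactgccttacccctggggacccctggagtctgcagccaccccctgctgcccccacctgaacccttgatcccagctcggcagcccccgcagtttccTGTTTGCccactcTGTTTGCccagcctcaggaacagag
Apob: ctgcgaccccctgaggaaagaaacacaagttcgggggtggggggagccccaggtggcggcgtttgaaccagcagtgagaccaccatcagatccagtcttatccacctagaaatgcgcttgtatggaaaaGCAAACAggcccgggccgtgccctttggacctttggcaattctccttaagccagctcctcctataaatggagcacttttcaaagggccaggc
Rbp4: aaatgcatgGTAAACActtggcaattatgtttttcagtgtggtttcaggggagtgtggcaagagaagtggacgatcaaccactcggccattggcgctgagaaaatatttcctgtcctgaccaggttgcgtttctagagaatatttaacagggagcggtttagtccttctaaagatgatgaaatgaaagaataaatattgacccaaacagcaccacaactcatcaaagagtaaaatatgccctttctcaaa
Cubn: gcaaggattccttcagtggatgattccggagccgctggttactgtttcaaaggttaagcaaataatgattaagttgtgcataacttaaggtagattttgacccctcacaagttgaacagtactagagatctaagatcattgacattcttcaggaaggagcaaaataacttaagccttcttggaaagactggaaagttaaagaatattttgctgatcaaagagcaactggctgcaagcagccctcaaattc
Apoa1 has a pair of identical TGTTTGC matches, 88 and 75 bases before its start, and the match of Afp lies 55 bases before its start. In Apob and Rbp4 the match is on the opposite strand, 121 and 241 bases before the start. A match is a run of letters, and no binding was measured.

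At day 0, 4 of the 6 carriers had 5 counts or fewer in a group, while all 4 uptake genes were measurable. Afp had 1 count over both WT libraries and 0 over both 6A libraries, and Apoa4 had 0 counts in all 4. For a day 0 library, 0 counts allows up to 0.2003 to 0.370 CPM. Ttr had 2 counts in each genotype, and Apoa1 had 3 in WT and 5 in 6A. Lrp2 was the highest of the 10 per exon length in WT at day 0, at 3.18 ± 0.457 CPM per kilobase (SD, n = 2), ahead of Dab2 at 2.08 ± 0.0207 CPM per kilobase. In 6A the order of these genes was the opposite, with Dab2 at 3.30 ± 0.509 and Lrp2 at 2.31 ± 0.0239 CPM per kilobase, and the libraries of the pair did not overlap in either genotype.

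**Figure D1:**
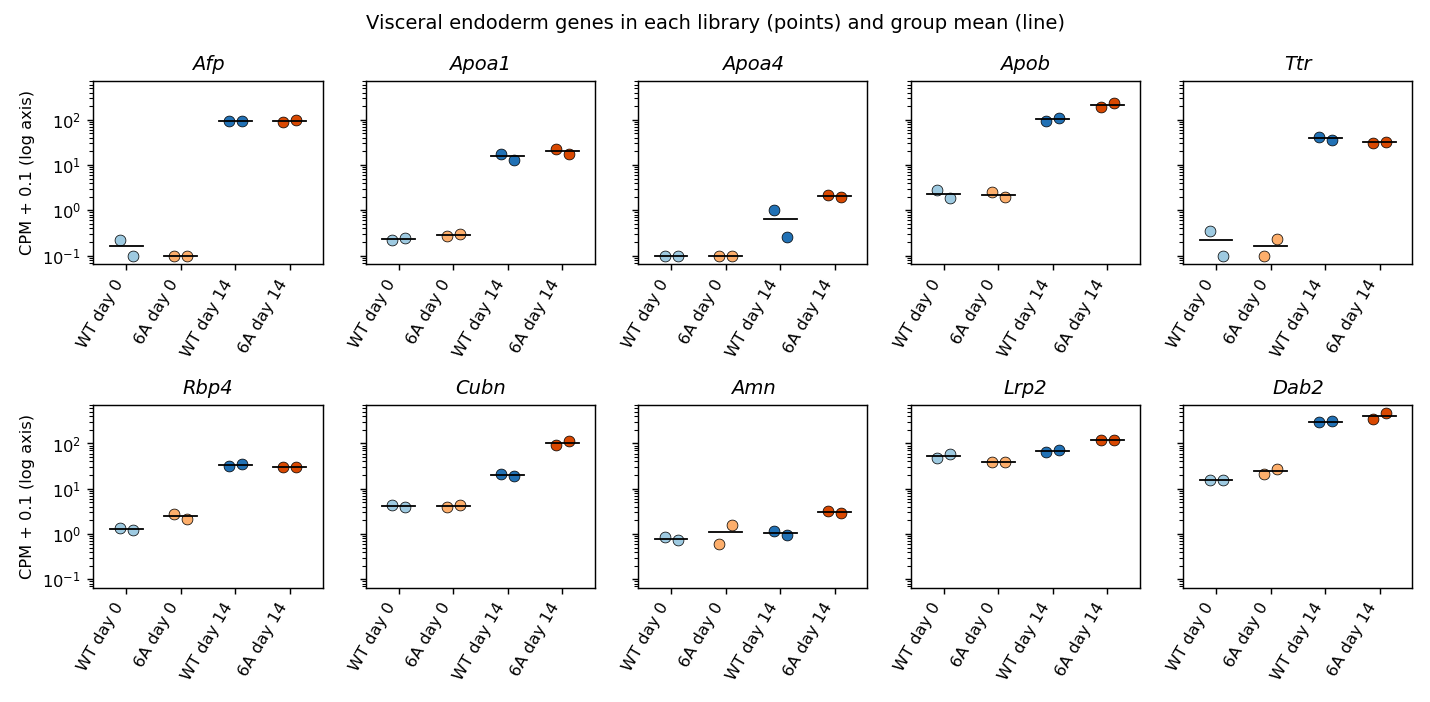
Level of each gene in CPM plus 0.1 (log axis) in every library (points) with the mean of the 2 libraries (line), for WT and 6A at day 0 and day 14. The carriers go from near 0 at day 0 to their day 14 levels in both genotypes, while Cubn, Apob, Amn and Lrp2 lie above WT in the 6A libraries of day 14.

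By day 14 all 6 carriers were higher than at day 0 in both genotypes, by 3.69 to 6.66 on the log2 scale where both days had enough counts for a fitted fold. In WT 9 of the 10 genes rose and none fell, where 75.2% of all 15458 genes tested changed and 38.4% rose (edgeR's quasi-likelihood test, Benjamini-Hochberg adjusted p under 0.05 over all genes tested). In 6A 10 of 10 rose, where 71.9% of genes changed and 35.4% rose. All 10 passed the filter on low counts, but Afp, Apoa1, Apoa4 and Ttr passed it through day 14 libraries alone, so their share of these counts had to differ between the days. Amn passed it through 4 libraries of day 14 and 1 of 6A at day 0. In bulk RNA, a change in the number of cells of a type and a change in RNA per cell cannot be told apart, here and in every comparison that follows.

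Afp, which was at 0.123 and 0 CPM in WT at day 0, reached 91.9 and 95.3 CPM at day 14, a ratio of 2091 over 1 count (95% counting interval 375 to 8.264e+04). In 6A it reached 88.2 and 98.2 CPM from 0 counts, which is at least 828-fold higher against a floor of 3 counts over the group. The libraries of both genotypes lie together at day 14. Ttr rose from 2 counts to 41.6 and 36.0 CPM in WT, a ratio of 426 (counting interval 117.5 to 3523), and from 2 counts to 31.2 and 32.4 CPM in 6A, a ratio of 424 (117 to 3511). Apoa1 rose from 3 counts to 17.9 and 12.9 CPM in WT, a ratio of 111 (37.5 to 539). In 6A it rose from 5 counts to 22.5 and 17.6 CPM (log2 fold change 6.66 ± 0.63, adjusted p = 2.0e-09). These intervals pool the counts of both libraries, so they cover counting error only and leave out the spread between libraries. Reads without molecular identifiers are also not independent molecules, so the intervals are too narrow.

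Apoa4 stayed the rarest carrier. It went from 0 counts to 8 and 2 counts in the WT libraries (0.927 and 0.158 CPM), at least 3.49-fold higher, and to 2.03 and 1.83 CPM in 6A, at least 17.2-fold higher. The WT call (adjusted p = 0.016) is lost without WT replicate 1 of day 14 (adjusted p = 0.12) or without WT replicate 2 of day 0 (0.086). Unlike the other carriers, Apob and Rbp4 were measurable at day 0. Apob rose from 2.72 and 1.77 CPM to 96.1 and 112 CPM in WT (log2 fold change 5.60 ± 0.24, adjusted p = 7.0e-11). In 6A it rose from 2.39 and 1.87 to 189 and 231 CPM (6.63 ± 0.23, adjusted p = 1.5e-11). Rbp4 rose from 1.23 and 1.13 to 32.5 and 34.9 CPM in WT (4.84 ± 0.27, adjusted p = 3.2e-10) and from 2.74 and 2.00 to 29.9 and 30.5 CPM in 6A (3.69 ± 0.20, adjusted p = 1.3e-09).

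Among the uptake genes, Dab2 and Cubn rose in both genotypes. The adaptor gene Dab2 went from 15.2 and 15.4 CPM to 303 and 306 CPM in WT (log2 fold change 4.31 ± 0.16, adjusted p = 8.6e-11). In 6A it went from 21.6 and 26.8 to 351 and 470 CPM (4.08 ± 0.15, adjusted p = 1.1e-10). Cubn rose 4.88-fold in WT, from 4.32 and 3.95 to 21.1 and 19.1 CPM (log2 fold change 2.29 ± 0.19, adjusted p = 6.8e-08). In 6A it rose 25.4-fold, from 3.85 and 4.34 to 94.2 and 115 CPM (4.66 ± 0.17, adjusted p = 5.4e-11). Its day 0 libraries overlap between genotypes and its day 14 libraries lie far apart.

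Lrp2, already high in stem cells, moved least in WT among the genes called. It went from 47.8 and 58.5 to 65.4 and 73.2 CPM (log2 fold change 0.38 ± 0.13, adjusted p = 0.017), and the call is lost without WT replicate 1 of day 0 (adjusted p = 0.12) or WT replicate 2 of day 14 (0.13). In 6A it rose from 38.2 and 38.8 to 116 and 120 CPM (1.62 ± 0.13, adjusted p = 9.7e-08). Amn was at 0.740 and 0.636 CPM in WT at day 0 and 1.04 and 0.870 CPM at day 14, a difference that missed the test (0.47 ± 0.58, adjusted p = 0.46, 95% interval -0.77 to 1.72). In 6A it rose from 0.513 and 1.47 to 3.19 and 2.80 CPM (1.52 ± 0.43, adjusted p = 0.0046). That call is lost without 6A replicate 1 of day 0 (adjusted p = 0.052).

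The genotypes were then compared at day 14. Cubn, Apob, Lrp2 and Amn were higher in 6A, none of the 10 genes was lower, and 6 did not pass the test. Of all 15458 genes, 13.6% were called, 5.33% as higher and 8.31% as lower. By role, 3 of 4 uptake genes and 1 of 6 carriers were called higher. The median log2 fold change was 1.21 over the uptake genes, 0.19 over the carriers and 0.60 over all 10, beside 0.0040 over all genes tested.

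Cubn (mm10, chr2:13276338-13491813, minus strand) showed the largest difference of the 10. Its day 14 level was 20.1 ± 1.39 CPM in WT and 104.5 ± 14.7 CPM in 6A (SD, n = 2), a 5.21-fold difference (95% interval 4.20 to 6.45; log2 fold change 2.38 ± 0.14, edgeR adjusted p = 3.6e-07). Both 6A libraries lie more than 4 times above both WT libraries. The predicted gene Gm13270 overlaps 368 bases of its exons on the other strand. Since the strand setting of the authors' counting is not given, antisense reads there cannot be told apart from those of Cubn. Amn (chr12:111271095-111276426, plus strand), the partner that anchors cubilin, rose 3.15-fold, from 0.957 ± 0.123 to 2.99 ± 0.274 CPM (1.65 ± 0.46, adjusted p = 0.024). It rests on 20 counts in WT and 62 in 6A, and the call is lost with DESeq2 (adjusted p = 0.15) and without any 1 of the 4 libraries of day 14 (0.071 to 0.19).

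Lrp2 (chr2:69424340-69586065, minus strand) rose from 69.3 ± 5.55 to 118 ± 2.70 CPM, 1.70-fold (0.77 ± 0.13, adjusted p = 0.0012), with no overlap of libraries. Apob (chr12:7977648-8016835, plus strand), the one carrier that was called, rose from 104 ± 11.2 to 210.1 ± 29.6 CPM, 2.02-fold (1.01 ± 0.14, adjusted p = 0.00038). Cubn, Lrp2 and Apob were called under all 14 alternatives. Dab2 lay at 304 ± 1.64 CPM in WT and 410.2 ± 83.9 CPM in 6A, without overlap, and missed the test (0.43 ± 0.14, adjusted p = 0.059). Its 6A libraries differ from each other by more than its WT libraries do, and it passed in 8 of 14 alternatives, where adjusted p ran from 0.010 to 0.049. Apoa4 had 10 counts in WT and 40 in 6A (1.99 ± 0.69, adjusted p = 0.059). It passed in 5 of 14 alternatives, and the fold ran from 1.05 to 3.52 on the log2 scale over all 14, the highest without WT replicate 1 of day 14. On the other strand, the predicted genes Gm47528 and Gm10680 overlap 634 and 632 of the 1815 exon bases of Apoa4. Gm18888 likewise overlaps 211 of the 7342 exon bases of Dab2. Antisense reads there cannot be told apart from those of Apoa4 and Dab2 either.

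**Figure D2:**
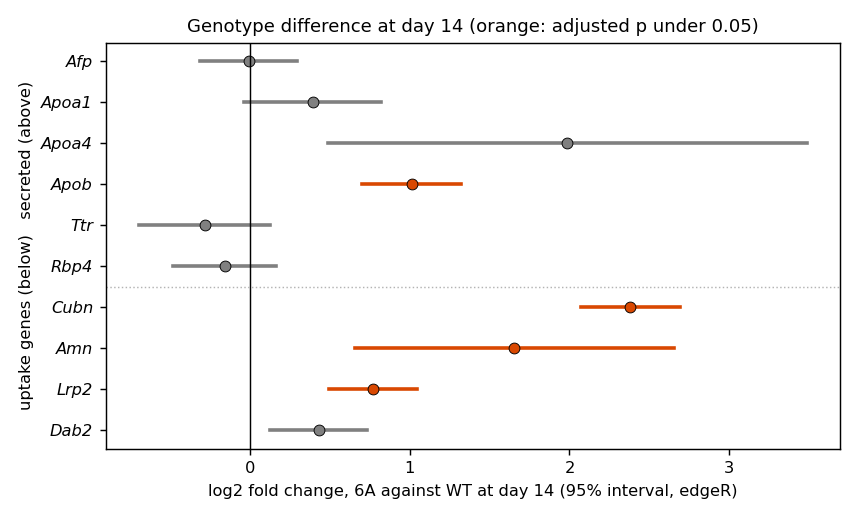
Log2 fold change of 6A against WT at day 14 for each gene (points) with its 95% interval (bars) from edgeR; orange marks an adjusted p under 0.05 and the dotted line divides the carriers above from the uptake genes below. Cubn stands at 2.38, while the intervals of Afp, Apoa1, Ttr and Rbp4 include 0.

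The other carriers did not pass the test, and for Afp the interval is narrow. Afp stood at 93.6 ± 2.38 CPM in WT and 93.2 ± 7.08 CPM in 6A (log2 fold change -0.01 ± 0.14, adjusted p = 0.99). Its 95% interval runs from 0.807-fold to 1.23-fold, which leaves out the fold changes fitted for Cubn, Apob, Lrp2 and Amn. The sign of this small difference flips with RLE scaling, with DESeq2 and with no filter. Ttr was at 38.8 ± 3.98 and 31.8 ± 0.879 CPM (-0.28 ± 0.19, adjusted p = 0.38) and its partner Rbp4 at 33.7 ± 1.71 and 30.2 ± 0.402 CPM (-0.16 ± 0.15, adjusted p = 0.56). In both, each 6A library lies below each WT library, but the 95% intervals include 0. Apoa1 was at 15.4 ± 3.51 and 20.03 ± 3.49 CPM with overlapping libraries (0.39 ± 0.20, adjusted p = 0.23, 95% interval -0.03 to 0.82).

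At day 0 none of the 10 genes was called between genotypes by edgeR, where 1.58% of all genes were. An unadjusted p under 0.05 was found for 3 of them, and DESeq2 called 1, Dab2. Dab2 measured 15.2 and 15.4 CPM in the WT libraries against 21.6 and 26.8 CPM in 6A (log2 fold change 0.67 ± 0.17, adjusted p = 0.065). Rbp4 was at 1.23 and 1.13 against 2.74 and 2.00 CPM (0.99 ± 0.30, adjusted p = 0.11). Lrp2 went the other way, at 47.8 and 58.5 against 38.2 and 38.8 CPM (-0.47 ± 0.13, adjusted p = 0.095). In none of these genes do the groups overlap. Cubn was at 4.14 ± 0.258 CPM in WT and 4.09 ± 0.348 CPM in 6A, with a 95% interval of 0.730-fold to 1.37-fold. A set of 4 Y-linked genes was followed as a marker of feeder RNA, an origin that was not tested. At day 0 it summed to 28.3 and 28.2 CPM in the WT libraries against 43.4 and 46.9 CPM in 6A. None of these 4 genes was called between genotypes at day 0. By day 14 the sum was between 0 and 0.0966 CPM. Of 10 fibroblast genes, 2 were higher in 6A at day 0. The part of feeder RNA in the day 0 values was not tested.

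The genotype by day interaction asks whether the 6A difference at day 14 differs, in either direction, from that at day 0. It was called for Cubn and Lrp2, both higher, where 4.74% of all genes were called, 1.4% as higher and 3.34% as lower. Cubn had an interaction of 2.38 ± 0.26 on the log2 scale (edgeR adjusted p = 0.00028) and Lrp2 of 1.24 ± 0.18 (adjusted p = 0.0022). For Lrp2 the sign of the fitted difference changed between days, from -0.47 to 0.77. Apob missed the test (1.03 ± 0.33, adjusted p = 0.0997), as did Rbp4 (-1.15 ± 0.34, adjusted p = 0.064), Amn (1.05 ± 0.72, adjusted p = 0.49) and Dab2 (-0.23 ± 0.22, adjusted p = 0.63). No interaction is given for Afp, Apoa1, Apoa4 and Ttr, which had a group of 3 counts or fewer.

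Levels of different genes can be compared only per exon length. In WT at day 14 Dab2 was highest at 41.5 ± 0.224 CPM per kilobase, followed by Ttr at 32.7 ± 3.36, Afp at 27.8 ± 0.707 and Rbp4 at 25.1 ± 1.27 CPM per kilobase. Below them stood Apoa1 (12.4 ± 2.84), Apob (7.46 ± 0.802), Lrp2 (4.15 ± 0.332) and Cubn (1.35 ± 0.0928 CPM per kilobase). Amn (0.519 ± 0.0665) and Apoa4 (0.299 ± 0.300 CPM per kilobase) came last and overlapped, whereas all other neighbours in this order were apart in both libraries. In 6A the same 4 genes led, with Dab2 at 55.9 ± 11.4 CPM per kilobase, but neighbours now overlapped in 3 places: Afp (27.7 ± 2.10) with Ttr (26.8 ± 0.741), Apoa1 (16.2 ± 2.82) with Apob (15.1 ± 2.13), and Lrp2 (7.08 ± 0.162) with Cubn (7.00 ± 0.981 CPM per kilobase). Cubn thus stood at 0.361 and 0.292 of the Lrp2 level per kilobase in the WT libraries and at 0.906 and 1.07 in the 6A libraries. Against its anchor Amn, Cubn was 2.50 and 2.72 times as high per kilobase in WT and 3.65 and 5.06 times in 6A. The plasma partners Ttr and Rbp4 kept ratios of 1.45 and 1.17 in WT and 1.18 and 1.20 in 6A.

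**Figure D3:**
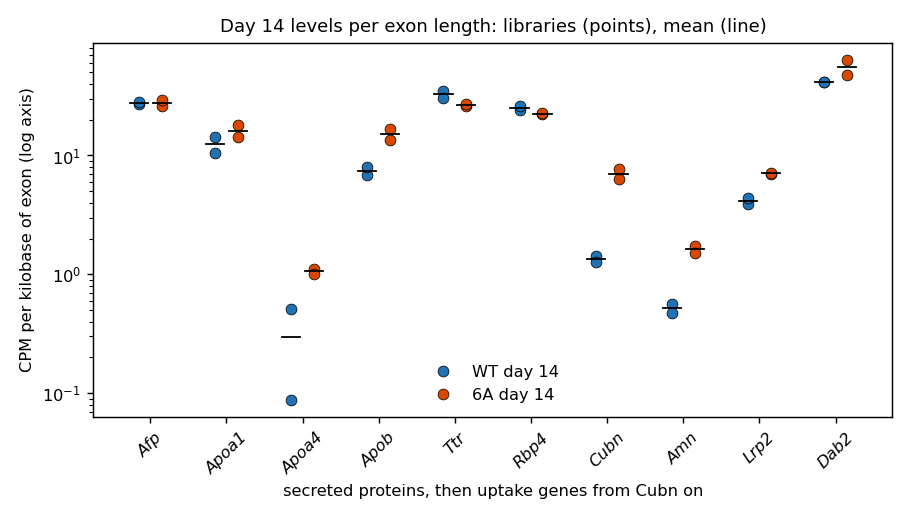
CPM per kilobase of exon at day 14 (log axis) for each gene, with both libraries (points) and their mean (line) in WT and 6A. Dab2 leads in both genotypes, and Cubn is below Lrp2 in WT (1.35 against 4.15) and level with it in 6A (7.00 against 7.08).

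The hybrid line allows reads to be given to a parent where the parents differ in sequence. The tables name the parents cas and mus, and mus is taken here as the 129 parent. Over all genes 29.1% to 31.6% of counts were assigned, of which 79.9% to 80.8% were 129, and 6962 of 12575 genes with a mean of at least 10 such reads (55.4%) had a 129 share over 95%. The 10 genes fell into separate sets. Afp, Apoa1, Apoa4 and Cubn were read from both parents at day 14. The 129 share of Afp was 56.7% in WT (564 reads, 95% Wilson interval 52.6% to 60.8%) and 55.1% in 6A (508 reads, 50.8% to 59.4%), and that of Cubn was 62.2% (156 reads, 54.4% to 69.4%) and 56.8% (836 reads, 53.4% to 60.1%). These intervals pool the reads of 2 libraries. The WT libraries of Cubn gave 52.1% and 70.6%, both outside its interval, whereas those of Afp gave 57.3% and 56.3%. Apoa1 had 40% of 55 reads in WT (46.7% and 32% in its libraries) and 56.3% of 64 reads in 6A. Apoa4 had 50% of 6 reads in WT and 52.0% of 25 in 6A.

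Apob, Rbp4, Lrp2 and Dab2 were read almost wholly as 129, with shares between 98.9% and 99.7% in both genotypes at day 14. Amn had 54 of 54 reads from 129 over all 8 libraries. Ttr lay between the sets, at 93.2% in WT (705 reads, 91.1% to 94.8%) and 90.8% in 6A (557 reads, 88.2% to 93.0%). Genes within 5 Mb of each member had like shares in all libraries: a median of 55.4% for the 37 neighbours of Afp and 58.7% for the 28 of Cubn, with 0 over 95% in either, but 98.9% for the 35 of Apob and 97.9% for the 40 of Lrp2. Cubn and Lrp2 both lie on chromosome 2. The 23 neighbours of Ttr had a median of 99.1%, above Ttr itself. No genotype difference in the share was called for the 8 genes with enough reads (edgeR, 0 of 8 called, adjusted p = 1 in each, 0 with an unadjusted p under 0.05), where 0.0398% of genes were called; no other tool was run. For Apob, Rbp4, Lrp2 and Dab2 this test can say little. At day 14 only 1 (Rbp4 in WT) to 23 (Dab2 in 6A) of their reads per group came from CAST. Intervals here cover counting error only.

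**Figure D4:**
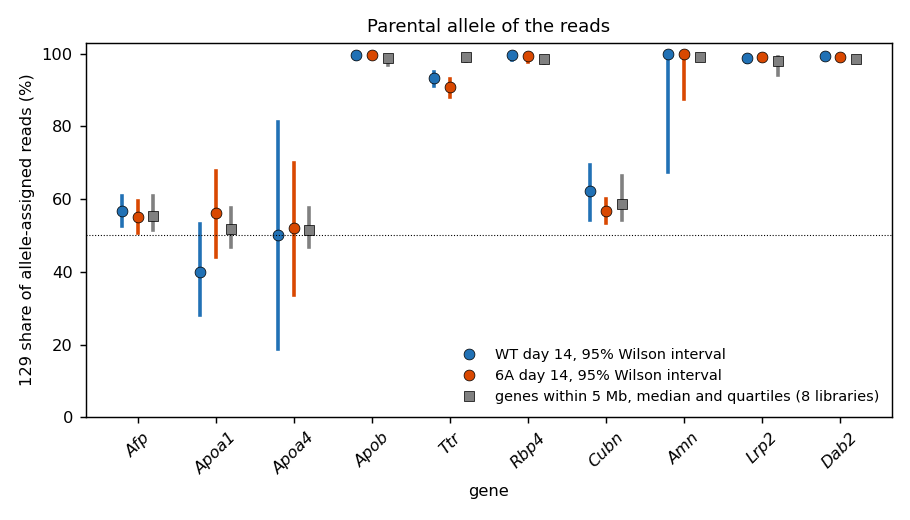
Share of allele-assigned reads given to the 129 parent (percent) at day 14 in WT and 6A, with 95% Wilson intervals, beside the median and quartiles of genes within 5 Mb of each gene over all 8 libraries (grey). Afp, Apoa1, Apoa4 and Cubn lie between 40% (Apoa1 in WT) and 62.2% (Cubn in WT), and the others above 90%, with Ttr at 93.2% and 90.8%.

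Other genes of the same tasks were followed from lists chosen by name, without the 10 genes. Beside each count of list genes between genotypes at day 14, here and below, stand 5.33% higher and 8.31% lower over all genes tested. Of 18 further proteins secreted by yolk sac endoderm, 11 were tested, of which 3 were higher in 6A at day 14 and 0 lower (median log2 fold change 0.44). These were F2, which encodes prothrombin (0.899 to 3.09 CPM, 1.78 ± 0.43, adjusted p = 0.010), Trf, the iron carrier transferrin (5.62 to 10.5 CPM, 0.91 ± 0.22, adjusted p = 0.014), and Apom, an apolipoprotein (1.91 to 5.21 CPM, 1.51 ± 0.41, adjusted p = 0.022). Serpina1b, a protease inhibitor, was at 2.21 and 0.772 CPM (-1.50 ± 0.49, adjusted p = 0.054). In lipoprotein assembly and retinol handling, 2 of 11 tested genes rose and 1 fell (median 0.32). The cholesterol exporter Abca1 rose from 160.3 to 334 CPM (1.06 ± 0.10, adjusted p = 2.0e-05) and the sterol esterifying enzyme Soat2 from 1.54 to 4.06 CPM (1.45 ± 0.36, adjusted p = 0.014). Mttp, which loads lipid onto the Apob protein, was at 17.9 and 25.0 CPM (0.47 ± 0.16, adjusted p = 0.065).

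Of 25 tested genes of the endocytic machinery, 6 rose and 3 fell at day 14 (median 0.21). Those that rose included the lysosomal proteases Ctsb (512 to 785 CPM, 0.62 ± 0.12, adjusted p = 0.0043) and Ctsd (477 to 747 CPM, 0.65 ± 0.13, adjusted p = 0.0052) and the lysosomal membrane protein Lamp1 (439 to 628 CPM, 0.52 ± 0.11, adjusted p = 0.0056). Lrp8 and Vldlr, which encode relatives of megalin, were among those that fell. Lrp8 fell from 30.8 to 15.3 CPM (-1.02 ± 0.16, adjusted p = 0.00065). Cblif (listed as Gif), the intrinsic factor gene whose product cubilin binds, had 0 counts in all 8 libraries.

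The tissue label was checked against endoderm regulators and markers. Of 14 endoderm transcription factor genes, 9 rose and 1 fell from day 0 to day 14 in WT, and 11 rose and 1 fell in 6A. Over all genes tested, 38.4% rose and 36.8% fell in WT, and 35.4% rose and 36.6% fell in 6A. Between genotypes at day 14, 1 of the 14 factor genes was higher and 2 were lower in 6A (median 0.0082). Over all genes tested, 5.33% were higher and 8.31% lower in this comparison. Gata4 measured 146 and 136 CPM (WT, then 6A), Gata6 256 and 282 CPM, and Hnf4a 9.56 and 10.5 CPM, and none of these 3 was called. Foxa1, a FOXA factor, fell from 36.6 and 34.2 CPM to 7.05 and 9.36 CPM (-2.11 ± 0.23, adjusted p = 3.7e-05). Foxa2 was at 10.99 and 6.03 CPM (-0.84 ± 0.30, adjusted p = 0.080). Sox7 rose from 4.85 to 13.4 CPM (1.46 ± 0.23, adjusted p = 0.00063). Of 14 other visceral endoderm markers, 7 rose and 4 fell from day 0 to day 14 in WT, and 10 rose and 4 fell in 6A. Their summed level fell from 780.6 to 623.5 CPM in WT and from 732.3 to 572.6 CPM in 6A. Cdh1 by itself fell by more than this sum did, from 388.8 to 174.5 CPM in WT and from 333.2 to 120.4 CPM in 6A. The fall of the sum is thus not a fall of the markers in general. Between genotypes at day 14, 4 of these 14 markers were higher in 6A and 2 lower (median 0.25). Dpp4, an apical peptidase, rose from 9.75 to 21.8 CPM (1.16 ± 0.17, adjusted p = 0.00045), and Cited1 from 5.08 to 13.5 CPM (1.40 ± 0.23, adjusted p = 0.00092). Cldn6, a tight junction gene, fell from 76.8 to 33.3 CPM (-1.21 ± 0.18, adjusted p = 0.00064).

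Several of the 10 genes are also active in liver, kidney tubule or choroid plexus, and embryoid bodies hold many cell types. Of 10 hepatocyte genes, whose summed level was 2.29 to 2.32 CPM in WT and 6.56 to 8.60 CPM in 6A at day 14, 4 were tested and 2 were higher (Tdo2 and Ahsg, each under 2 CPM). Alb, which is also in the list of yolk sac secreted genes, made up 2.20 and 1.27 CPM of this sum in the WT libraries against 4.93 and 3.38 CPM in 6A. Without it, the WT libraries summed to 0.116 and 1.03 CPM against 3.67 and 3.19 CPM in 6A. Cyp2e1, Cyp3a11 and Cyp7a1 had 0 counts in every library. The 7 kidney proximal tubule genes other than Lrp2 summed to at most 0.740 CPM in any library, none was tested, and Slc13a1 and Kap were at 0 throughout. The 9 choroid plexus genes summed to 98.4 to 104 CPM in WT and 93.4 to 95.3 CPM in 6A at day 14, with 0 higher and 2 lower of 7 tested, and Kcnj13 had 2 counts in WT and 0 in 6A.

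Genes listed as markers of other lineages also differed with genotype at day 14, and several of them are not specific to 1 cell type. Parietal endoderm genes summed to 5701 to 6365 CPM in WT and 7243 to 7797 CPM in 6A, and 3 of 11 were higher and 0 lower, Lama1 among them (1.42 ± 0.12, adjusted p = 7.3e-06). Macrophage genes summed to 281 to 290 CPM and 488 to 511 CPM, with 7 of 9 higher and 0 lower. Pluripotency genes summed to 505 to 536 CPM and 691 to 706 CPM, with 5 of 10 higher and 0 lower. In the other direction, cardiac genes summed to 1416 to 1585 CPM in WT and 239 to 249 CPM in 6A (0 higher and 7 lower of 7 tested) and neural genes to 389 to 399 CPM and 172 to 183 CPM (0 higher and 9 lower of 12); Sox2 is in both the neural and the pluripotency list. Of 10 fibroblast genes, 2 were higher and 2 lower, and none of 4 Y-linked genes was called. No library of 1 group overlapped the other group in the 5 sums given for these lineages. The part of these other cells in the values of the 10 genes was not tested.

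The profiles of the 10 genes over the 8 libraries were last set against each other and against 11842 other genes whose mean reached 5 CPM, as the root mean square difference of centred log2 CPM; the 8 libraries share groups, so this is a description. The closest pair among the 10 was Rbp4 and Dab2 (0.31), followed by Apoa1 and Apob (0.41) and by Amn and Lrp2 (0.51), while Cubn lay farther from its anchor Amn (1.30) and from Lrp2 (1.35). The nearest other gene of Cubn was Fam180a (0.22), at 4.89 CPM in WT and 23.9 CPM in 6A at day 14. For Afp it was Gata6 (0.48). Lrp2 was nearest to Foxo4 (0.15), Apob to Trpm5 (0.20), Dab2 to Clca3a1 (0.14), Rbp4 to Capn6 (0.18), Ttr to Prdm6 (0.27), Apoa1 to Wnt2 (0.16), Amn to Hs3st1 (0.33) and Apoa4 to Lrrn4 (0.47).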

How the data were processed

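Per the labels' protocols, total RNA without ribosomal RNA went into directional libraries, sequenced as paired reads of 150 bases. The submitters' processing notes name cutadapt 1.4.2, STAR 2.7.10a and mm10. The counting tool, its strand setting, the annotation and the allele assignment remain not given in the sources used here. For each library, the authors deposited raw counts of all reads per gene and the counts assigned to each parent. Here they were scaled by TMM (CPM, mean ± SD, n = 2) and fitted in edgeR 4.0.16 (R 4.3.3) by quasi-likelihood with 1 coefficient per group over all 8 libraries, after filterByExpr (15458 genes kept; 4 residual degrees of freedom). Calls required a Benjamini-Hochberg adjusted p under 0.05 across the genes tested, and log2 fold changes are ± SE. With 2 against 2, an exact permutation test cannot go below p = 0.333 (two-sided), so calls rest on spread shared across genes. The p-values measure only the spread between these libraries, which the labels call biological replicates.

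A group with 3 counts or fewer is given a count ratio with an exact conditional interval, or a bound against a floor of 3 counts over the group. Exon lengths and positions came from GENCODE M21 (mm10), where 23264 symbols matched. Allele reads were fitted in edgeR with a term per library and an allele term per group. Alternatives were RLE scaling, no filter, at least 1 CPM in 2 libraries, DESeq2 1.42.0, the 2 groups alone, a replicate block, leaving out each library, and at least 30 allele reads. The scripts were tested on simulated data. The members and lists were chosen with earlier results of these data known. All 10 genes are named, with up to 4 genes per list by smallest adjusted p at day 14, markers at 0 throughout and the nearest gene by profile. Gata4, Gata6, Hnf4a, Mttp, Vldlr, Kcnj13 and Cdh1 were named after their values were seen. Some list genes are not reported here.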

Additional observations from a re-analysis of the deposited data

Results flagged for a closer look

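The 6A difference changed between day 0 and day 14 for 2 of the 10 genes, by edgeR's test of that change. For Cubn the change was 2.38 on the log2 scale (adjusted p = 0.00028), from 4.14 and 4.09 CPM in WT and 6A at day 0 to 20.1 and 104.5 CPM at day 14. For Lrp2 it was 1.24 (adjusted p = 0.0022), from 53.2 and 38.5 CPM at day 0 to 69.3 and 118 CPM at day 14. Both were called under every alternative run for this contrast.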

How the results depend on the processing

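Over 43 results for single genes and their 591 alternative values, 544 kept direction and side of the threshold, 10 lost the call, 20 gained it and 17 changed sign, all 17 in results not called. The number of genes called between genotypes at day 14 was 4, and 3 to 6 over the alternatives. On differentiation it was 9 in WT (8 to 9) and 10 in 6A (9 to 10), in the interaction 2 (2 to 3), and for allele shares 0 throughout. At day 0 the count of 0 became 2 without a filter (Lrp2 and Dab2), 1 with DESeq2 (Dab2), and 0 to 1 without 1 library (1, Lrp2, without WT replicate 1 of day 0).

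Whether the replicate numbers pair the samples is not settled. Deviations of same-numbered libraries correlated weakly but always positively between groups, at 0.0042 to 0.24, with 2 pairs per comparison. With the replicate block, 2 genes were called at day 0 (Lrp2 and Dab2) and 5 at day 14 (with Dab2, adjusted p = 0.021), and the other counts did not change.

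Sign changes, on the log2 scale, were these. Afp at day 14 was 0.029 with RLE, 0.048 without a filter and 0.034 with DESeq2, and from -0.082 to 0.073 without 1 library. Cubn at day 0 was -0.012 with RLE, -0.014 without a filter and -0.014 with DESeq2, -0.022 with the 2 groups alone, and from -0.094 to 0.076 without 1 library. Apob and Amn at day 0 ran from -0.37 to 0.25 and from -0.39 to 1.10 without 1 library. The causes were not tested. Over all genes, calls at day 0 went from 244 to 459 without a filter, 466 with the block, 23 with the 2 groups alone and 32 to 567 without 1 library. At day 14 they went from 2109 to as few as 982 and in the interaction from 733 to as few as 280 without 1 library. Depth limits Apoa4, Amn and the day 0 carriers most, since they rest on few counts.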
